A study of Mus musculus with 8 samples.

Results

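The neuronal and growth cone genes described here are 37 genes that are typical of developing neurons: proteins of the growing axon tip and its microtubules, neurofilaments, neuronal RNA-binding proteins, the transcription factors that make and name neurons, receptors for survival factors, vesicle proteins and axonal adhesion molecules. They were taken from a list of symbols that was chosen with earlier results of these data known. Each gene stands for its brightest probe set, the one with the highest mean over all 8 arrays, among the probe sets annotated to that symbol alone. All 37 were measured, out of 18194 genes in all. The RNA came from the mandibular arch, the embryonic forerunner of the lower jaw, of C57BL/6J mice at embryonic day 11.5. It was read on 4 arrays from control embryos with the genotype Alk5 fl/fl and on 4 arrays from mutants with the genotype Alk5 fl/fl; Wnt1-Cre. Alk5, also called Tgfbr1, is the type I receptor of TGF-beta, and both groups carry the floxed allele. The Wnt1-Cre transgene acts in the neural crest lineage, so that in the mutants the mesenchyme, glia and crest-derived neurons are targeted while placode-derived neurons, epithelium, muscle and blood are not. The control labels name no Cre, so effects of the driver and of losing the receptor cannot be told apart here. Sex was not determined. Whether the samples of a group came from separate embryos is not stated in the labels, and the p-values then cover only the spread among these samples, which may be technical.

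The nerves of the mandibular arch are branches of the trigeminal nerve. Their sensory cell bodies lie in the trigeminal ganglion, which forms from neural crest cells and from placode cells of the head ectoderm, and their axons grow into the arch mesenchyme led by growth cones. In an arch sample, neuronal genes may therefore be read from any cell bodies included, from RNA carried in axons, or from other cells that use the same genes. Several of them, such as Ncam1, Gap43 and Ntrk2, are also known from glia, muscle or mesenchyme. Whether the dissections included neuronal cell bodies is not known here. In whole-tissue RNA, fewer cells of a type and less RNA per cell cannot be told apart.

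All values are log2 expression, and each change is the mean of the mutants minus the mean of the controls on that scale. The words rose and fell are kept for genes with an adjusted p under 0.05 in limma, a linear model fitted to all 18194 genes, with the Benjamini-Hochberg adjustment over all of them. The array medians lay between 6.28 and 6.42. Mutant replicate 3 differed from the other arrays: the SD over its probe sets was 2.42, where the other 7 had 2.52 to 2.56, and its dim values were higher and its bright values lower than elsewhere. The brightest probe set of Tgfbr1 read 12.71 to 12.90 in controls and 12.97 to 12.99 in mutants (change 0.19 ± 0.07 SE, limma adjusted p = 0.232). Dimmer probe sets of Tgfbr1 differed by 0.51 ± 0.18 and 0.30 ± 0.17 SE, with overlap between the groups. Whether any of these probes lie inside the floxed part is not known here, so they are no check of the deletion. Among 13 markers of mandibular arch mesenchyme 1 rose (Dlx2, 0.56) and 0 fell by limma. Their median change was -0.16, with 9 of the 13 below 0 and 8 at an unadjusted p under 0.05. Over all genes 13.5% had such a p. Of all genes above the median level 66.7% lay below 0, and of those under it 37.2%. The linear values of the 13 markers summed to between 36559 and 41001 in controls and 31260 and 34803 in mutants. Macrophage markers were higher in the mutants, with 11 of 16 risen, a median change of 1.03 and summed linear values of 2927 to 3231 in controls and 5453 to 7514 in mutants. Their part in the neuronal results was not tested. Of the endothelial (10 measured), epithelial (11), erythroid (11), skeletal muscle (12) and neural progenitor markers (10), 0 passed the limma test. An unadjusted p under 0.05 was reached by 1, 1, 4, 1 and 3 of them, beside 13.5% of all genes. The median change was -0.21 for epithelial markers (9 of 11 below 0) and -0.14 for erythroid ones (10 of 11). For the other lists it lay between -0.01 and 0.03. Skeletal muscle markers varied widely within groups, with summed linear values of 3347 to 14666 in controls and 3533 to 9575 in mutants.

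Of the 37 neuronal genes, 2 rose and 2 fell in the mutants and 33 did not pass. Gap43, the growth cone phosphoprotein, and Ntrk2, the receptor TrkB for brain-derived neurotrophic factor, rose 2.52-fold and 1.86-fold. Tubb3, the neuronal beta-tubulin, and Crmp1, a collapsin response mediator protein of the axon, fell 3.17-fold and 1.40-fold. Over all genes 2.14% passed in either direction, 0.835% higher and 1.31% lower, where 4 of 37 is 10.8%. As the members and role groups were chosen with earlier results known, their shares are no test of neuronal genes as a set. The groups did not overlap for 5 of the 37 (13.5%), against 10.3% of all genes. An unadjusted p under 0.05 was reached by 13 of the 37 members, 6 higher and 7 lower, against 2450 of all 18194 genes (13.5%). The median change of the 37 was 0.02, beside -0.01 for all genes, and 19 lay above 0 and 18 below. This balance depended on mutant replicate 3: without it the median was -0.04 and 11 of the 37 lay above 0. With any other single array left out, 18 to 21 lay above 0.

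**Figure D1:**
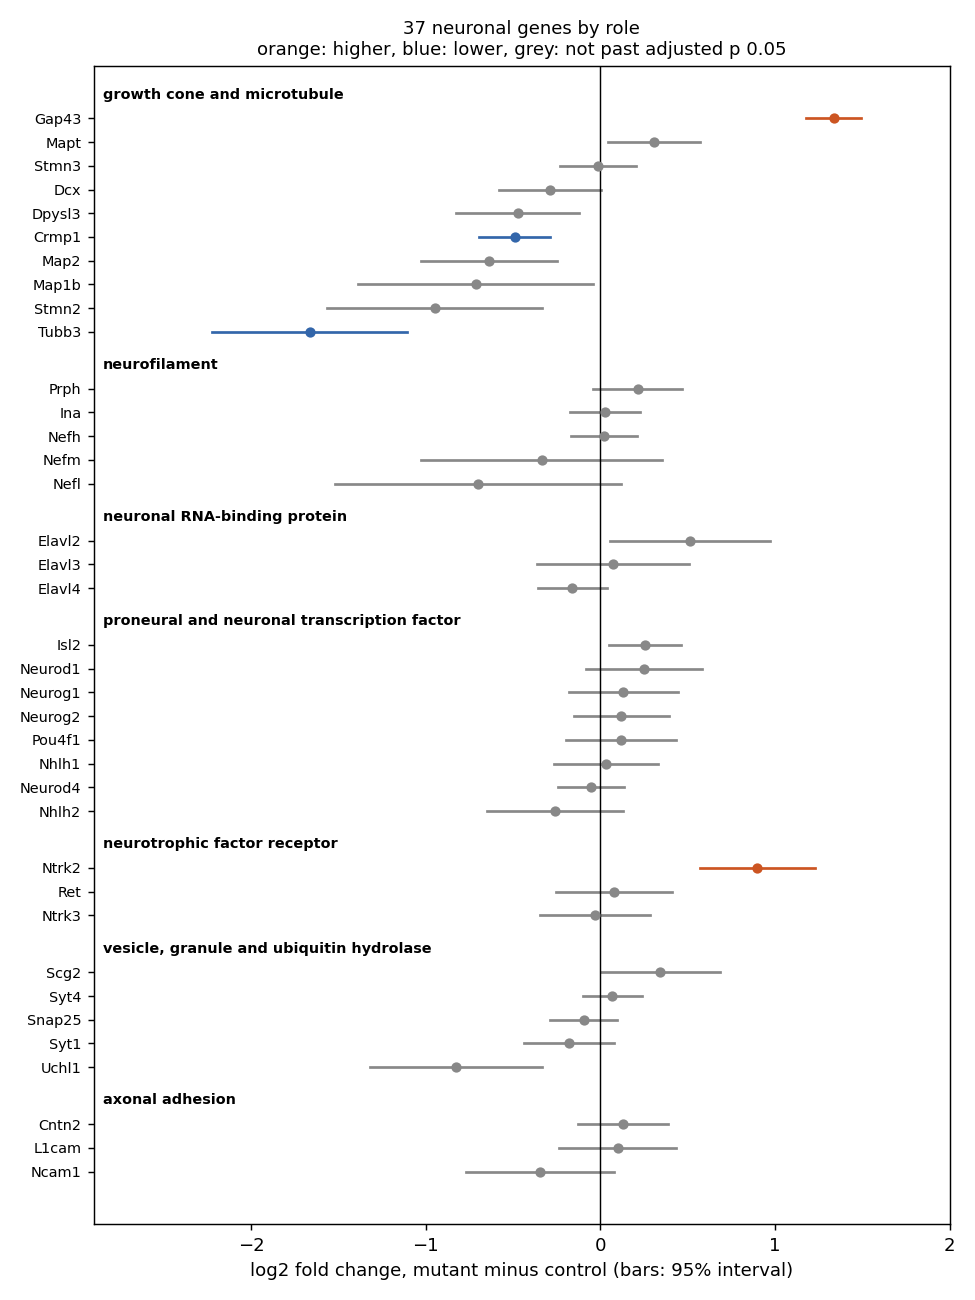
Log2 fold change of each of the 37 neuronal genes (x axis, mutant minus control, points) with its 95% interval (bars) from the limma fit, grouped by role. Gap43 and Ntrk2 (orange) rose, Tubb3 and Crmp1 (blue) fell, and the 33 grey genes did not pass.

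The proteins of the growth cone and axonal microtubules held 3 of the 4 genes that passed: of 10 genes, 1 rose and 2 fell, while 7 did not pass. The median change was -0.48, with 8 of the 10 below 0. An unadjusted p under 0.05 was reached by 8 of the 10. Over all genes 2.14% passed, 13.5% had such an unadjusted p, and 9455 of 18194 lay below 0. As this role group was chosen with earlier results known, its counts are no test of growth cone genes as a set. Gap43, which sits under the membrane of growing axon tips and is also made by immature Schwann cells, read 9.95, 9.99, 9.95 and 10.04 in control replicates 1 to 4 and 11.39, 11.24, 11.24 and 11.41 in mutant replicates 1 to 4. The 4 values of each group lay close together and far from those of the other group. The change was 1.34 ± 0.07 SE (95% interval 1.18 to 1.49, limma adjusted p = 0.000127), and Gap43 had the smallest p of all genes. Among 11 measured markers of Schwann cells and other glia, Foxd3 fell (-0.45) and the other 10 did not pass, with a median change of -0.04 and 4 at an unadjusted p under 0.05. The groups did not overlap for Foxd3, nor for Mbp, a myelin gene that was higher in all mutants (0.28, limma adjusted p = 0.13). Such a lack of overlap was seen for 10.3% of all genes. The summed linear values of the 11 markers were 2752 to 3886 in controls and 2387 to 3094 in mutants. Their part in the Gap43 result was not tested. Gap43 is read by a single probe set here.

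Tubb3, a tubulin isotype used as a marker of young neurons, read 8.86, 9.23, 9.09 and 8.08 in controls and 7.44, 7.41, 6.75 and 7.01 in mutants. The groups did not overlap, but control replicate 4 lay nearly midway between the other controls and the mutants. The change was -1.67 ± 0.249 SE (95% interval -2.22 to -1.11, limma adjusted p = 0.0126). It lost its call without control replicate 3 (adjusted p = 0.0519) or mutant replicate 4 (0.0538), with changes of -1.57 and -1.62. Crmp1, which relays the semaphorin signal that makes growth cones retract, read 9.15, 9.35, 9.31 and 9.26 in controls and 8.85, 8.89, 8.55 and 8.82 in mutants. All mutant values were lower than all control values, with control replicate 4 among the other controls. The change was -0.49 ± 0.0909 SE (limma adjusted p = 0.0276). Crmp1 lost its call without control replicate 1 (adjusted p = 0.0553), control 2 (0.116), control 3 (0.117), mutant 1 (0.0581) or mutant 4 (0.0865). Tubb3 and Crmp1 are also read by a single probe set each.

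The DNA before the transcription starts of the genes that passed is shown because it holds part of the elements that switch each gene on. Of the 37 genes, 25 have such a stretch in the RefSeq promoter table (GRCm38.p6), and 3 of the 4 that passed do, Tubb3, Crmp1 and Ntrk2. Capitals mark every match, on either strand, to the letters CANNTG, the E-box bound by proneural factors such as the neurogenins, and to CAGAC, the short box bound by Smad proteins, which carry the TGF-beta signal. All 3 genes lie on the plus strand, and each stretch ends at the base before the gene's annotated start, 5′ to 3′. They are chr8:123411303-123411552 for Tubb3, chr5:37241808-37242057 for Crmp1 and chr13:58806319-58806471 for Ntrk2.
Tubb3: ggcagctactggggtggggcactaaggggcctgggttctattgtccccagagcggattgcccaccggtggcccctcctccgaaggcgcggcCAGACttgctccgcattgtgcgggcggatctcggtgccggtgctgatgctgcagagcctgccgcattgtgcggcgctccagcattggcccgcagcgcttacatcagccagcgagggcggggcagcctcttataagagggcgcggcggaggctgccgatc
Crmp1: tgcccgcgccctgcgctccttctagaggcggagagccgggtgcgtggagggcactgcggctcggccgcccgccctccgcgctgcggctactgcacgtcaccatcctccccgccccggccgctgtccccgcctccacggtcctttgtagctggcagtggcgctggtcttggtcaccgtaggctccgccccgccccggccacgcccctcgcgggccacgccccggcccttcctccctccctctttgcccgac
Ntrk2: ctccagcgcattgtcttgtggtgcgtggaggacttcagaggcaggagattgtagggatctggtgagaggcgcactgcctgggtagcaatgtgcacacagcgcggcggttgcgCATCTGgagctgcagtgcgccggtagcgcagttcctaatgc

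Tubb3 has 1 match to CAGAC, starting 159 bases before the start and on the plus strand, and no match to CANNTG in these 250 bases. Crmp1 has no match to either in its 250 bases. Ntrk2 has 1 match to CANNTG, starting 41 bases before the start, and no match to CAGAC in its 153 bases. Of 32851 stretches in the same table, 66.2% hold CANNTG and 42.2% hold CAGAC in their first 250 bases. In their first 153 bases 50.0% and 29.2% do. Those 153 bases are the upstream end of each stretch and need not reach a start, as the printed Ntrk2 bases do. The 2 letter patterns do not overlap in the printed sequences, and the matches are common ones.

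Of the growth cone and microtubule genes that did not pass, those nearest the threshold were lower in most mutants. Stmn2, a microtubule-destabilizing stathmin of growing axons, read 7.45, 7.95, 7.49 and 6.52 in controls and 6.16, 6.87, 6.29 and 6.28 in mutants. Control replicate 4 lay among the mutants, away from the other controls. The change was -0.95 ± 0.275 SE (limma adjusted p = 0.137), and without control replicate 4 it was -1.23 (adjusted p = 0.0116). With any other single array left out, the adjusted p of Stmn2 was 0.0992 to 0.359. A second Stmn2 probe set differed by -1.38, with control replicate 4 again at the level of the mutants (5.17, where the other controls read 6.76 to 7.35).

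Map2, the microtubule-associated protein of dendrites and cell bodies, read 8.50, 8.27, 8.34 and 7.92 in controls and 7.78, 7.92, 7.16 and 7.62 in mutants. The lowest control met the highest mutant, and the change was -0.64 ± 0.174 SE (limma adjusted p = 0.114). The dimmer Map2 probe sets did not show this, with differences of -0.02, -0.08 and 0.24. Over the mean of all 4 the change was -0.12 (limma adjusted p = 0.519). Dpysl3, a collapsin response mediator protein related to Crmp1, read 10.21, 10.57, 10.31 and 9.87 in controls and 9.90, 9.97, 9.47 and 9.74 in mutants. Control replicate 4 lay among the mutants, and the change was -0.47 ± 0.156 SE (adjusted p = 0.201). Its other 2 probe sets differed by -0.55 and -0.40.

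Map1b, a large microtubule-binding protein of growing axons, read 9.45, 9.03, 8.93 and 7.99 in controls and 8.33, 8.63, 7.90 and 7.70 in mutants. Here too control replicate 4 lay among the mutants. The change was -0.71 ± 0.30 SE (limma adjusted p = 0.337). Its dimmer probe sets differed by -0.64 and 0.06. Mapt, the axonal protein tau, went against this direction, with 6.34, 6.38, 6.18 and 6.47 in controls and 6.64, 6.46, 6.98 and 6.54 in mutants, a change of 0.31 ± 0.118 SE (adjusted p = 0.281). The groups met at control replicate 4 and mutant replicate 2. Dcx, the microtubule protein of migrating neurons, differed by -0.29 and the stathmin Stmn3 by -0.01, and neither passed.

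**Figure D2:**
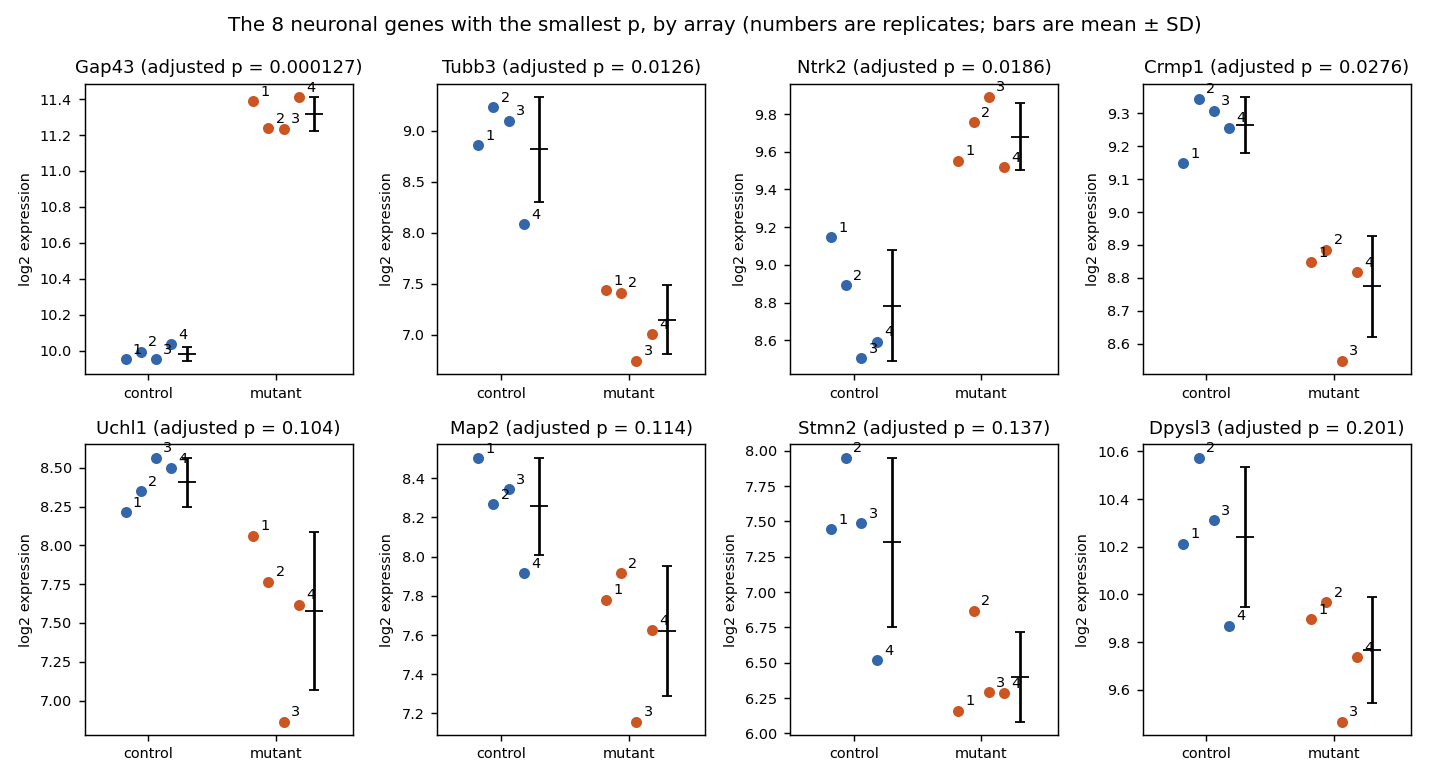
Log2 expression (y axes, a scale of its own in each panel) of the 8 neuronal genes with the smallest p in the 4 control (blue) and 4 mutant (orange) arrays, each point numbered by its replicate, with mean ± SD. In Tubb3, Map2, Stmn2 and Dpysl3 control replicate 4 is the lowest control, whereas in Gap43, Crmp1 and Uchl1 it lies with or above the other controls.

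Among the receptors for survival factors, 1 of 3 rose. Ntrk2 read 9.15, 8.89, 8.50 and 8.59 in controls and 9.55, 9.76, 9.89 and 9.52 in mutants. Every mutant was above every control, and the gap between the highest control and the lowest mutant was smaller than the spread of the controls. The change was 0.90 ± 0.147 SE (95% interval 0.57 to 1.23, limma adjusted p = 0.0186). It lost its call without control replicate 2 (adjusted p = 0.0614) or control 3 (0.0664).

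Ntrk2 is read by 8 probe sets, which did not all show the rise. A second one differed by 1.07 (6.74, 5.54, 5.99 and 5.75 in controls, 7.00, 7.48, 7.00 and 6.82 in mutants), without overlap between the groups. The other 6 differed by -0.11 to 0.19, and over the mean of all 8 the change was 0.30 (adjusted p = 0.103). TrkB is made as a full-length receptor with a kinase and as shortened forms without it, and which form each probe set reads is not known here. Bdnf, a ligand of TrkB, differed by -0.40 (adjusted p = 0.111) and Ntf5, another of its ligands, by -0.60 (0.213), and neither passed. For both ligands all mutants lay below all controls, where the groups did not overlap for 10.3% of all genes.

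Ntrk3, the receptor TrkC for neurotrophin-3, averaged 5.94 ± 0.317 over the 4 controls and 5.91 ± 0.0648 over the 4 mutants (SD), a change of -0.03 with a 95% interval of -0.34 to 0.29. Ret, the signalling receptor for the GDNF family, read 6.39 ± 0.0571 and 6.47 ± 0.34, a change of 0.08 with an interval of -0.25 to 0.41. A dimmer Ret probe set differed by -0.83 (5.03, 4.53, 5.24 and 4.18 in controls, 3.85, 3.92, 3.96 and 3.91 in mutants). The groups did not overlap there, as for 10.3% of all genes by their brightest probe sets. The limma adjusted p of this probe set over all 45101 was 0.112.

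The neuronal RNA-binding proteins of the Hu family, which stabilize messages of differentiating neurons, did not pass the limma test (0 of 3, with 1 at an unadjusted p under 0.05). Elavl2 read 8.88, 8.01, 8.25 and 8.41 in controls and 9.08, 9.11, 8.42 and 9.00 in mutants. Of the mutants 3 lay above all controls and replicate 3 lay among them, and the change was 0.51 ± 0.204 SE (limma adjusted p = 0.305). The next 2 probe sets by brightness differed by 0.43 and 0.44. Elavl3 and Elavl4 differed by 0.07 and -0.16.

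None of the 8 transcription factors passed by limma, and 1 of them, Isl2, had an unadjusted p under 0.05. The neurogenins Neurog1 and Neurog2, which commit cells to a neuronal fate, differed by 0.13 (95% interval -0.18 to 0.44) and 0.12 (-0.15 to 0.39). Neurod1 and Neurod4, which act after them, differed by 0.25 and -0.05, and the helix-loop-helix genes Nhlh1 and Nhlh2 of newborn neurons by 0.03 and -0.26. Pou4f1, the sensory neuron factor Brn3a, averaged 4.37 ± 0.141 over the 4 controls and 4.49 ± 0.289 over the 4 mutants (SD). Isl2, a LIM-homeobox factor of sensory and motor neurons, read 7.10, 6.93, 7.05 and 7.28 in controls and 7.28, 7.22, 7.44 and 7.44 in mutants, a change of 0.26 ± 0.0924 SE (limma adjusted p = 0.25). All 8 lay below 7.63, the median level of all genes, so their probe sets were dim in both groups, and no detection calls were used here.

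The neurofilament genes, which encode the intermediate filaments of axons, did not pass the limma test (0 of 5, also at an unadjusted p under 0.05). Nefm read 8.58, 7.40, 7.67 and 7.72 in controls and 7.63, 8.26, 7.15 and 6.98 in mutants. Control replicate 1 and mutant replicate 2 were the high arrays of their groups, and the change was -0.34 ± 0.309 SE (limma adjusted p = 0.704). Nefl read 8.79, 7.47, 7.36 and 7.28 in controls and 7.48, 7.54, 6.44 and 6.65 in mutants. Control replicate 1 was well above the other controls for both genes, and the 95% interval of the Nefl change ran from -1.52 to 0.12. Ina, Prph and Nefh differed by 0.03, 0.21 and 0.02.

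Of the vesicle and granule genes and the neuronal ubiquitin hydrolase, 0 of 5 passed the limma test, and 2 had an unadjusted p under 0.05. Uchl1, the ubiquitin hydrolase that is abundant in neurons, came nearest. It read 8.21, 8.35, 8.57 and 8.50 in controls and 8.06, 7.77, 6.86 and 7.62 in mutants. The groups did not overlap, and the mutants spread more widely than the controls, with replicate 3 lowest. The change was -0.83 ± 0.219 SE (limma adjusted p = 0.104), and without mutant replicate 3 it was -0.59 (0.0426). With any other single array left out, the adjusted p of Uchl1 was 0.064 to 0.306. Of the fusion machinery, Snap25 differed by -0.10 and the calcium sensor Syt1 by -0.18, while Syt4 differed by 0.07 and the granule protein Scg2 by 0.34 (adjusted p = 0.37).

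The axonal adhesion molecules did not pass the limma test either (0 of 3, also at an unadjusted p under 0.05). Ncam1, which is also made by muscle and mesenchyme, read 10.10, 10.02, 9.95 and 9.42 in controls and 9.54, 9.99, 9.33 and 9.25 in mutants. Control replicate 4 was the low control and mutant replicate 2 the high mutant, and the change was -0.35 ± 0.189 SE (limma adjusted p = 0.486). L1cam and Cntn2, adhesion proteins of bundled axons, differed by 0.10 and 0.13. For the 33 members that did not pass, the 95% interval of the change lay within ±0.5 for 18 and within ±1 for 27, so changes of 1 on the log2 scale were within the interval for the other 6. Of the 37 members, 26 lay below the median level of all genes and 11 below the lower quartile of 5.70. The dimmest were Neurod4 (mean 3.47), Snap25 (3.48) and Nefh (3.66). RMA flattens small differences of dim probe sets, so a narrow interval there does not show that a gene was unchanged.

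With all 8 arrays, the direction of a member's change went with how bright its probe set was, as it did over all genes. Of the 11 members above the median level of all genes, 8 had a change below 0 (72.7%, median -0.47), beside 66.7% of all such genes (median -0.05). Of the 26 dimmer members 10 did (38.5%, median 0.05), beside 37.2% of all dimmer genes. Mutant replicate 3 was the highest of the 4 mutants for 16 of the 26 dimmer members and the lowest for 7 of the 11 brighter ones. Without it this split was gone: 18 of the 26 dimmer members (69.2%) and 8 of the 11 brighter ones (72.7%) lay below 0, beside 54.0% of all dimmer and 49.1% of all brighter genes. All 4 members that passed are among the 11 brighter ones. Of all genes above the median level 2.65% passed, and of the dimmer ones 1.64%. With the arrays quantile-normalized once more, these 4 members passed, and 620 of all genes did in place of 390. The part of signal level and of mutant replicate 3 in the members' changes was not tested.

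**Figure D3:**
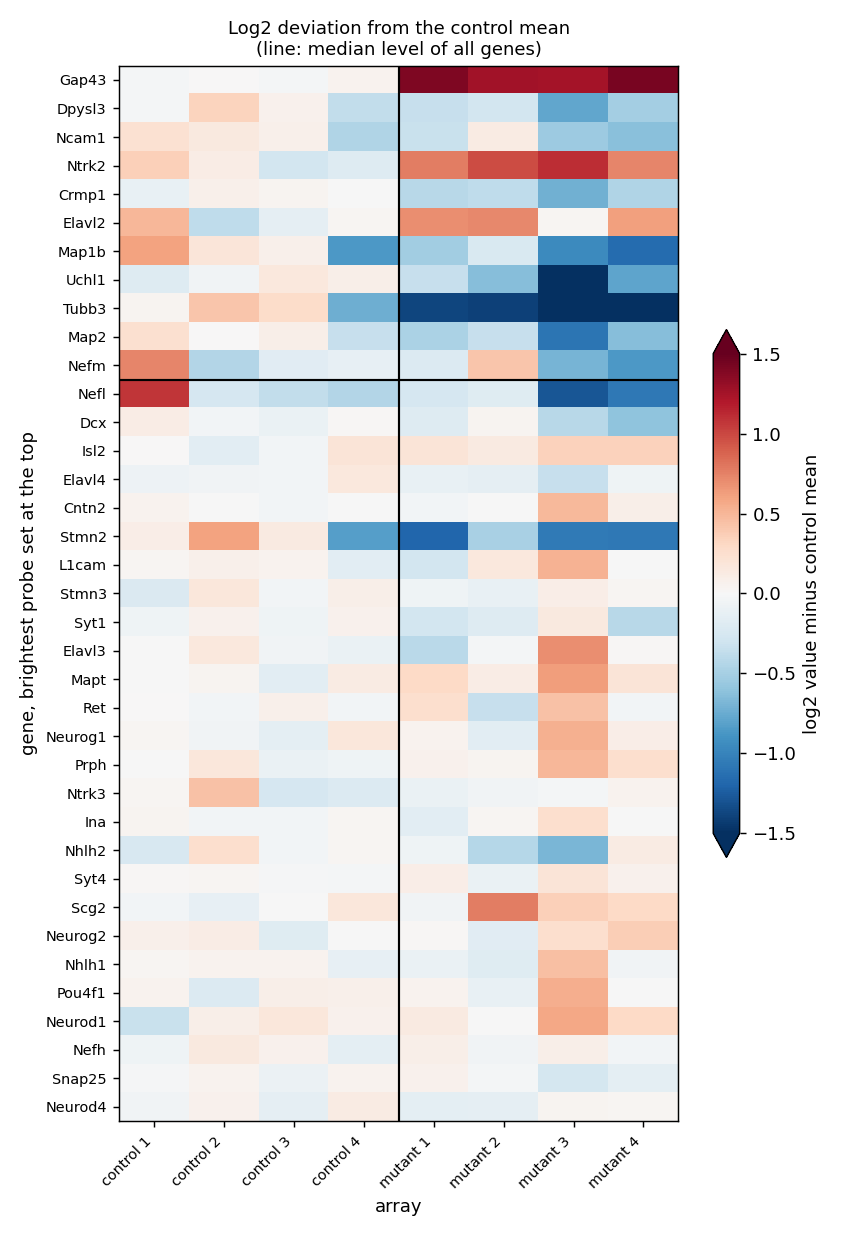
Log2 value of each neuronal gene in each array minus its control mean (colour scale, cut at ±1.5), with the brightest probe set at the top and a line at the median level of all genes. Below the line the column of mutant 3 is mostly red, and above it control 4 is blue for Map1b, Tubb3, Ncam1, Dpysl3 and Map2.

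Control replicate 4 was the lowest control for 5 of the 11 brighter members, Tubb3, Map1b, Map2, Dpysl3 and Ncam1. For all 5 it lay more than 0.5 of the way from the mean of the other controls to the mutant mean, and for Map1b and Ncam1 it lay past that mean. For Gap43 and Crmp1 it lay at 0.0515 and 0.0212 of the way. Control replicate 1 was instead the highest control for Nefm, Map1b, Map2, Ncam1, Ntrk2 and Elavl2. With control replicate 4 and mutant replicate 3 left out together, 7 members passed: the 4 above and Stmn2 (-1.19, limma adjusted p = 0.0213), Map2 (-0.60, 0.0149) and Dpysl3 (-0.50, 0.0402). All genes past the threshold were then 1126 in place of 390, and the choice of these 2 arrays was made after seeing the data.

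The 37 genes are covered by 101 probe sets, with 26 genes read by several. Of the 64 probe sets that are not the brightest of their gene, 46 had the sign of the brightest, and all 4 of those above the median level of all genes did. Tested as single probe sets with the adjustment over all 45101, the same 4 genes passed, by their brightest probe sets, where 0.845% of all probe sets did.

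**Figure D4:**
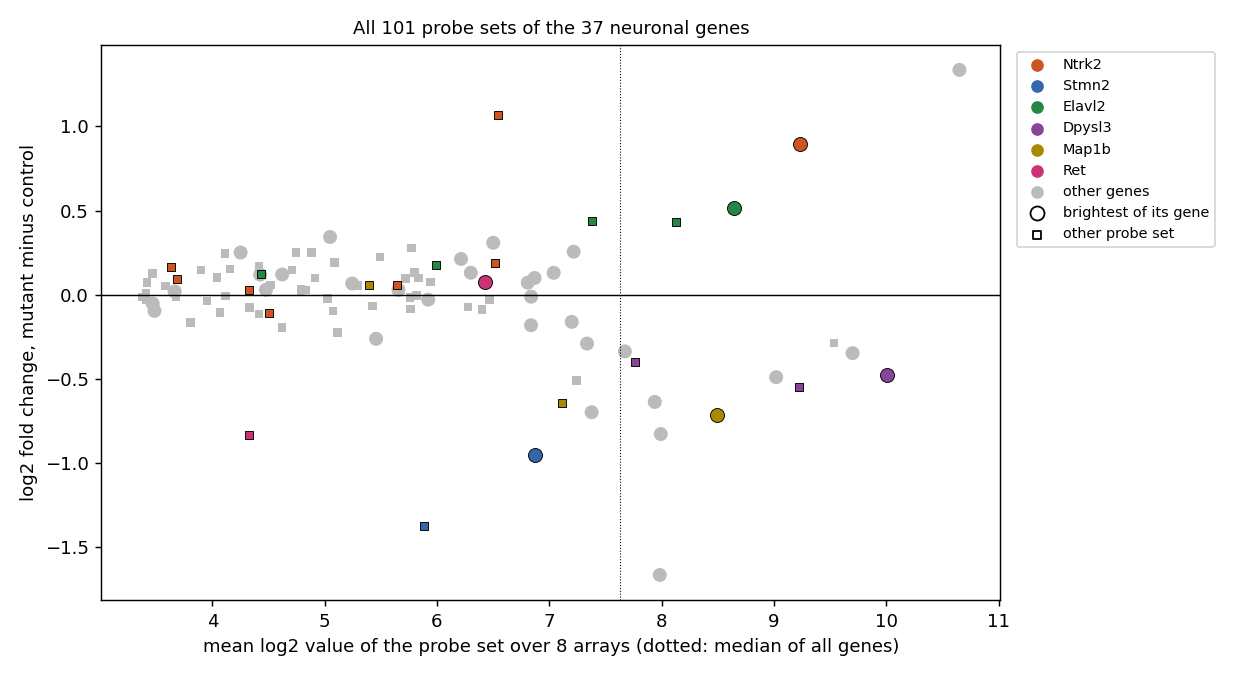
Log2 fold change (y axis, mutant minus control) of all 101 probe sets of the 37 genes against their mean log2 value over 8 arrays (x axis), with large circles for the brightest probe set of a gene and small squares for the others. The 2 Stmn2 probe sets lie at -0.95 and -1.38 and the 3 brighter Elavl2 ones at 0.43 to 0.51, whereas 2 of 8 Ntrk2 probe sets are near 1 and the rest near 0.

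Other genes of the same processes, from 5 lists outside the 37, passed about as often as all genes: of 95 measured, 0 rose and 2 fell by limma (2.11%), and 14 had an unadjusted p under 0.05, 3 of them higher and 11 lower. Of the 95, 4 passed without mutant replicate 3 and 1 without control replicate 1, control replicate 2 or mutant replicate 1, and neither of the 2 passed without control replicate 3 or mutant replicate 4. Of 24 further growth cone and neuronal microtubule genes 1 fell, Thy1, a surface glycoprotein of neurons and other cells, from 7.16 ± 0.272 to 6.29 ± 0.149 (SD, n = 4 each; change -0.87 ± 0.136 SE, limma adjusted p = 0.0149), and the median was -0.02. Of 22 vesicle and granule genes 1 fell, Syt11, from 9.34 ± 0.0857 to 8.92 ± 0.0823 (change -0.43 ± 0.0749 SE, adjusted p = 0.0238), and the median was 0.01. Of 19 identity genes of peripheral neurons 0 passed by limma (3 at an unadjusted p under 0.05), with a median of 0.03, and the smallest p belonged to Insm1, a factor of newborn neurons and endocrine cells (-0.47, adjusted p = 0.132), and Tac1, the gene of substance P (-0.66, 0.217). Of 12 further neurotrophins, GDNF family ligands and receptors 0 passed by limma (3 unadjusted), with a median of -0.03. Of 18 repressors and regulators of neuronal genes 0 passed by limma (4 unadjusted), with a median of -0.06, and Ptbp2, a splicing regulator of neurons (0.26, adjusted p = 0.166), and Id4, an inhibitor of helix-loop-helix factors (-0.75, 0.207), came nearest. Insm1, Ptbp2 and Id4 showed no overlap between the groups, as did 10.3% of all genes. Rest, the repressor of neuronal genes in other cells, read 11.49 ± 0.113 in controls and 11.34 ± 0.165 in mutants, a difference within the spread (adjusted p = 0.571), and was named after its value was seen.

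Of the 4 neuronal genes that passed, Gap43 alone kept its call without any single array, with adjusted p-values from 0.000106 to 0.00218. Without control replicate 3 it was the only member past the threshold, and 2 members passed without control replicate 2 (Gap43 and Tubb3) or mutant replicate 4 (Gap43 and Ntrk2). The counts over all genes moved with these arrays too, to 104, 109 and 108, and to 151, 198 and 618 without control replicate 1, mutant replicate 1 and mutant replicate 3.

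**Figure D5:**
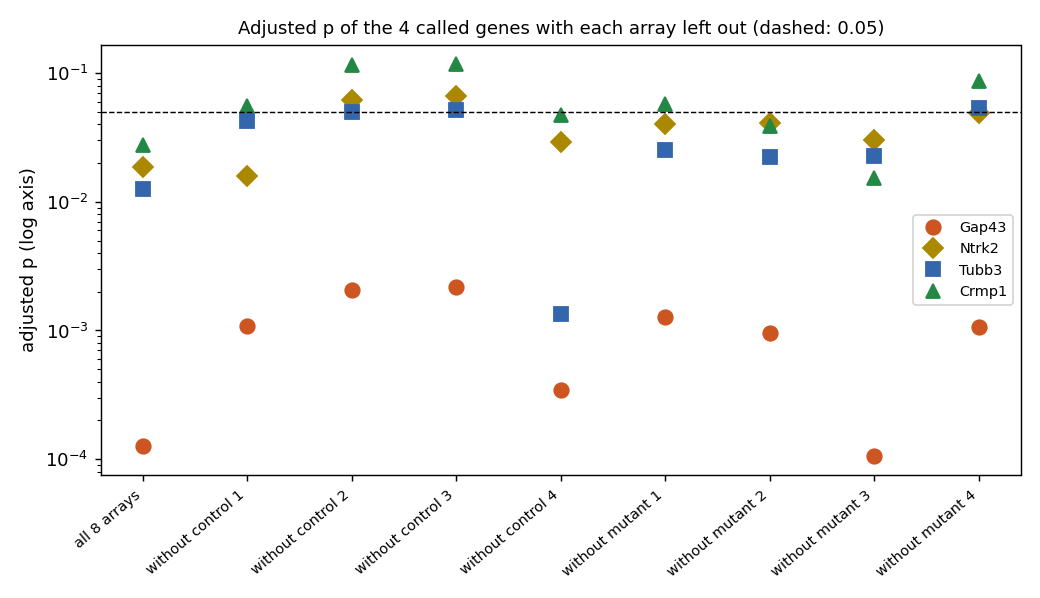
Adjusted p (y axis, log scale) of the 4 neuronal genes that passed, with all 8 arrays and with each array left out in turn (x axis); the dashed line is 0.05. Gap43 stays at or below 0.00218 throughout, whereas Crmp1 lies above the line in 5 of the 8 omissions and Ntrk2 and Tubb3 in 2 each.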

How the data were processed

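Per the labels, total RNA from mandibular arches was extracted with a column kit and labelled with biotin for Affymetrix arrays. The deposited values are log2 expression per probe set, made by the authors with RMA per the submitters' processing notes (version and genome build not given in the sources used here). In RMA values small differences of dim probe sets are flattened. Detection calls were not used here.

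Of 45101 probe sets, 34958 had 1 symbol in the platform annotation, 932 several and 9211 none. The brightest probe set of each gene gave 18194 genes. Mutants were compared with controls in limma 3.58.1 (R 4.3.3), lmFit and eBayes without covariates, adjusted by Benjamini-Hochberg over all genes. Intervals are 95%, and the number of arrays limits every value. The model was tested on simulated arrays. The members, role groups and 13 further lists were chosen with earlier results of these data known. Per-array values are given for the members that passed, the next 8 by p and the brightest of each role group, with Nefl and second probe sets added after their values were seen. Sequences are from RefSeq (GRCm38.p6). List genes not measured were not analysed here. Alternatives were a replicate block, other probe set choices, a level filter, quantile normalization, other variance models, array weights, a looser threshold and leaving out arrays.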

Additional observations from a re-analysis of the deposited data

Results flagged for a closer look

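In 5 of the 74 groups of 4 arrays, the array at the end of the range lay far from the next one, with a gap, as a share of the group's whole range, above Dixon's 95% critical value. Chance gives about 1 in 20 groups. Control replicate 1 was far above the other controls for the neurofilament gene Nefl (8.79, next 7.47, gap 0.873 of the range). Mutant replicate 3 was far below the other mutants for Elavl2 (8.42, next 9.00, gap 0.849). Control replicate 4 was above the other controls for Elavl4 (7.44, next 7.24, gap 0.846) and below them for Nhlh1 (4.34, next 4.49, gap 0.853), and control replicate 2 was below them for Pou4f1 (4.16, next 4.42, gap 0.868).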

How the results depend on the processing

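The count of 4 members past the threshold stayed between 3 and 4 under 8 of the alternatives and was 8 with array weights, 1 to 5 with single arrays left out, and 7 without control 4 and mutant 3 together, an alternative chosen after seeing the data. All genes past the threshold were 390, or 620 after quantile normalization, 1356 with array weights, 664 at an adjusted p under 0.1, 104 to 618 with single arrays left out and 1126 without both arrays. The genes of the 5 further lists past the threshold were 2, or 1 with the replicate block, above the median level or after quantile normalization, 8 with array weights, 0 to 4 with single arrays left out and 10 without both arrays. Of the 14 members chosen by rule to be given by array (Nefl was added later and has no alternatives), 0 changed sign under any of the alternatives, 3 of the 4 calls were lost under at least 1, and 5 other members gained one. Array weights added Uchl1, Map2, Stmn2 and Elavl2. Same-numbered arrays deviated from their group means with correlations of 0.0327, 0.0019, -0.124 and 0.406, and only 1 of 4 controls correlated best with its own number, so the numbers are not taken as pairs. With the replicate number as a block 3 members passed, and Crmp1 did not (adjusted p = 0.0711). The cause of these shifts was not tested.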
